A study of Rattus norvegicus with 4 samples.

Results

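The 10 genes described here encode precursors of neuropeptides known from chromaffin cells, the catecholamine-secreting cells of the adrenal medulla: Nts, Gal, Npy, Penk, Vip, Tac1, Cartpt, Sst, Adcyap1 and Nmb. The list gives them by name, and it was drawn up with earlier results of these data known. Every probe set, a group of short probes that reports on 1 transcript, was taken if the platform annotation names 1 gene only and that gene is on the list. This gave 11 probe sets, with 2 for Adcyap1 and 1 for each of the others, of 31042 in all, and all 10 of the genes were found among 14217 named on the array. Total RNA of rat adrenal medulla was hybridised to 4 single-colour arrays, 2 from unstressed animals and 2 from rats held immobilized for 2 h. The labels do not give strain, age, number of sessions or the time of tissue collection, and they do not say whether an array holds 1 animal or a pool, so p-values measure only the spread between these arrays, which may be technical.

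Neuropeptides are cut from larger precursor proteins inside the secretory granules, where chromaffin cells store them together with adrenaline and noradrenaline, and they leave the cell with the catecholamines on stimulation. Immobilization is a standard rodent stressor that drives the splanchnic nerve, whose terminals release acetylcholine and the peptide PACAP onto chromaffin cells. Several neuropeptide genes are textbook targets of cyclic AMP signalling, through the cAMP response element in their promoters that the factor CREB binds. The arrays read messenger RNA and not peptide.

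The stretch of 250 bases before the annotated start was read from the RefSeq promoter table of the GRCr8 build. That table held 9 of the 10 genes, and Penk, which had no entry, was not searched. Sequences are shown for Nts and Tac1, whose readings went from dim to bright. Shown too are Cartpt, the 1 of these 9 with a full cAMP response element in its stretch, and Vip, a classic cAMP-regulated gene. The Nts stretch lies at chr7:39460889-39461138 on the minus strand, that of Tac1 at chr4:36645333-36645582 on the plus strand, that of Cartpt at chr2:32991236-32991485 on the minus strand and that of Vip at chr1:44470230-44470479 on the plus strand. Each reads 5′ to 3′ on the gene's strand and ends at the base before the start. Capitals mark matches to any of the 4 motifs searched.
Nts: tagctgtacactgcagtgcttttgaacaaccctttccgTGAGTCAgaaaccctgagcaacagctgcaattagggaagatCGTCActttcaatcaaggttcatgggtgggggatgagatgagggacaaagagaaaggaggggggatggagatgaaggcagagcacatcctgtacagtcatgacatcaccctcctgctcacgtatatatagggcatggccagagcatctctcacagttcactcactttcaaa
Tac1: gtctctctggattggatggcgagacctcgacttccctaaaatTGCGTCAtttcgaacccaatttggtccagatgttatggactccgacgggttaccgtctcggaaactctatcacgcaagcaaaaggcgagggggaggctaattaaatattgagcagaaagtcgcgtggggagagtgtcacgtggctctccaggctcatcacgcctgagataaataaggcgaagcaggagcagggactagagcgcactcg
Cartpt: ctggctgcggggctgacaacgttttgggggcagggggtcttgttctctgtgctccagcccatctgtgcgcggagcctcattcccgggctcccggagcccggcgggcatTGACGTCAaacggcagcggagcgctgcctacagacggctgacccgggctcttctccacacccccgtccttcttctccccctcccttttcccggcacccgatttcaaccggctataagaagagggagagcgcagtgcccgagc
Vip: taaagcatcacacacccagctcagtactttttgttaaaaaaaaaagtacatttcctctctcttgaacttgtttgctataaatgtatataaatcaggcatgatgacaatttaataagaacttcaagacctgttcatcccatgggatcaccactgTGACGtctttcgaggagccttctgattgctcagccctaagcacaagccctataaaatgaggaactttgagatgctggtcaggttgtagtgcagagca

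Both strands were searched for the full cAMP response element TGACGTCA, its core TGACG, the enkephalin-type element TGCGTCA and the AP-1 element TGANTCA, which Fos and Jun proteins bind. The full element reads the same on both strands and holds the core on each, and the enkephalin-type element holds the core on the opposite strand. The core occurred in 5 of the 9 members (Nts, Gal, Vip, Tac1 and Cartpt), against 18.2% of all 33469 promoters in the table. In Cartpt it was part of the full element, which began 142 bases before the start and occurred in 1.59% of promoters. In Tac1 it was part of the enkephalin-type element, 208 bases before the start (1.66% of promoters). Nts also held the AP-1 element, 212 bases before the start, which 6.34% of promoters held. In Gal and Vip the core began 63 and 97 bases before the start. Npy, Sst, Adcyap1 and Nmb held no match in this window. Bases outside it, before or after, were not searched and the annotated starts were not checked, so elements may lie there. The motifs were chosen after the sequences were seen, so the counts of members with a match are no test of an excess. Matches are descriptions of the letters and not measured binding sites.

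**Figure D1:**
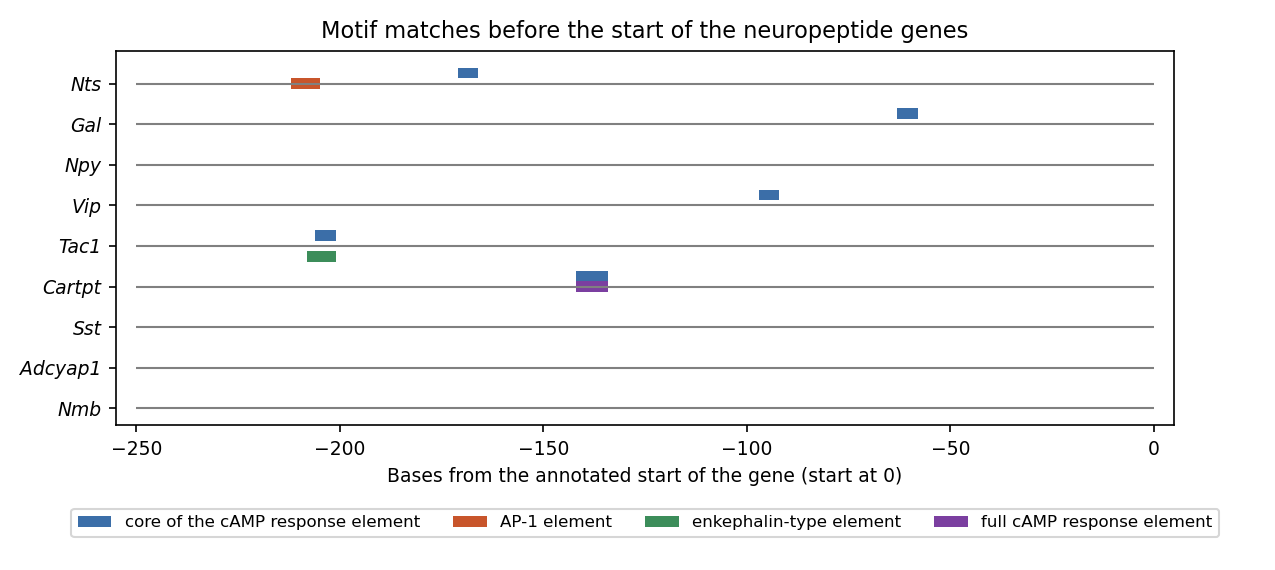
Motif matches in the 250 bases before the annotated start of the 9 member genes in the promoter table. The x axis gives distance from the start in bases, the y axis the gene, and boxes the matched bases by motif. Matches lie in Nts, Gal, Vip, Tac1 and Cartpt, the nearest to the start being that of Gal at 63 bases.

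The 4 arrays had been scaled alike, with trimmed means of 2501 on each and median intensities from 826.6 to 955. The array's 27 control probe sets for Bacillus transcripts, which rat RNA does not contain, read no higher than 193 and 189 on unstressed 1 and 2, and 257 and 145 on immobilized 1 and 2. They served as the only guide to background, because no detection calls were used. Chromaffin markers (Th, Dbh, Pnmt, Chga and 6 others on the array) were bright, their summed intensity being 365192 and 328748 unstressed against 429561 and 302424 immobilized. By the brightest probe set of each, 0 of these 10 rose and 0 fell in limma, and also 0 and 0 at an unadjusted p under 0.05. A dimmer probe set of Hand2, a transcription factor of the sympathoadrenal lineage, read 3634 and 2903 unstressed and 2134 and 1352 immobilized, and fell by 0.93 ± 0.25 (adjusted p = 0.0325 in limma). Adrenal cortex markers were bright too, with Cyp11a1, the first enzyme of steroid synthesis, at 58703 and 66853 against 57289 and 41966. The medulla samples thus held RNA of cortex genes, and in bulk tissue fewer cells of a type and less RNA per cell cannot be told apart.

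Immobilized arrays read higher than unstressed arrays on average at all 11 neuropeptide probe sets. The smallest of these changes was that of Nmb, at 0.22 on the log2 scale. Over all 18625 tested probe sets the median change was -0.12, and the share with a higher immobilized mean was not counted. At 9 of the 11 the groups did not overlap, and at 2, those of Vip and Nmb, they did. Over all 31042 probe sets the immobilized arrays lay wholly above the unstressed ones at 23.3% and wholly below them at 35.8%. Fold changes are given as differences of log2(intensity + 16), which understates the change of dim probe sets. Probe sets in the lowest 40% by mean log2 value over the 4 arrays (below an intensity of roughly 543.8) were reported but not tested. That left 7 of the 10 genes for the test, and Tac1, Sst and Adcyap1 outside it. Nts, Gal, Penk and Npy rose in limma (threshold 0.05 after Benjamini-Hochberg adjustment), and 0 fell. Among all 10320 tested genes 11.2% rose and 21.8% fell. At an unadjusted p under 0.05 the members gave 5 rises and 0 falls, Cartpt being the fifth, and of all tested genes 15.1% rose and 29.7% fell at that threshold. The median change of the 7 tested members was 0.80 on the log2 scale, and that of all tested genes -0.14. The first value is no summary of all 10 members, since passing the filter depended on the immobilized readings too.

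**Figure D2:**
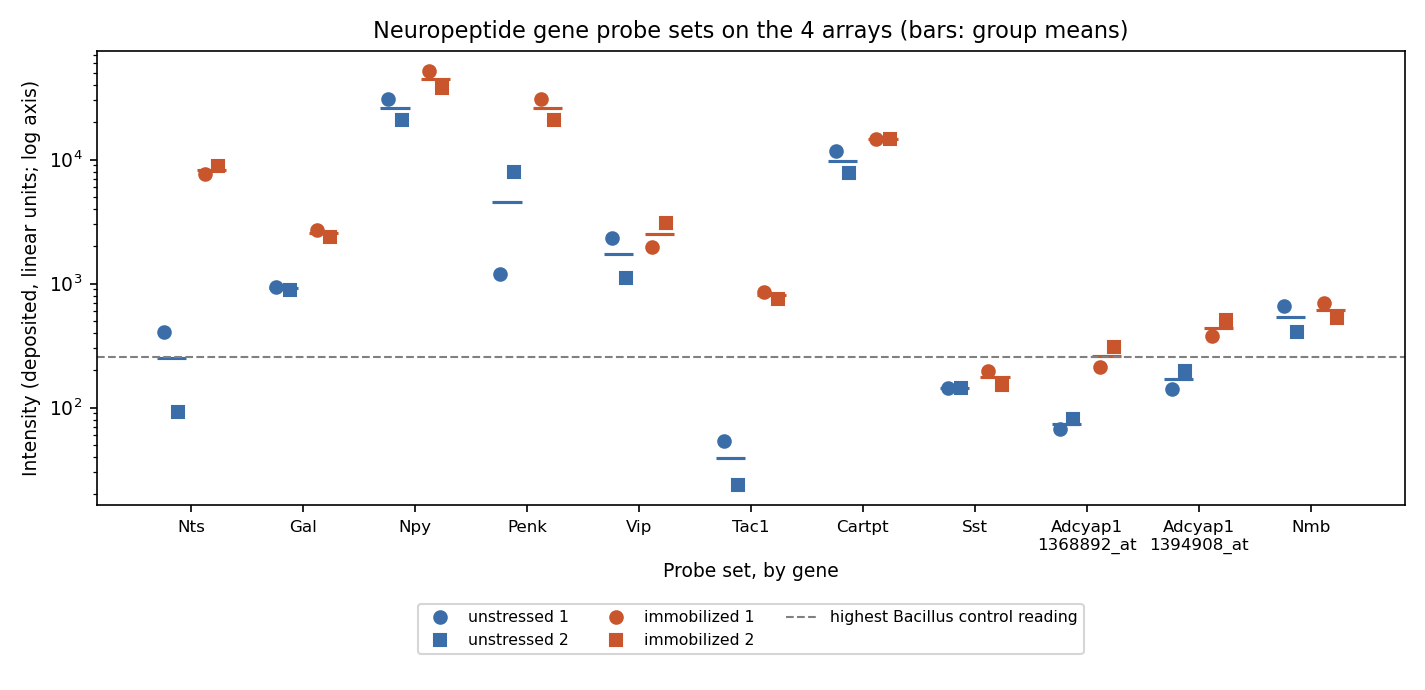
Intensity of each neuropeptide probe set on the 4 arrays, on a log axis, with circles for the first and squares for the second array of a group and short bars for group means. The dashed line is the highest Bacillus control reading on any array, 257. All 4 Sst points lie below it, as do the unstressed points of Tac1 and Adcyap1. Penk shows the widest gap between unstressed arrays, 1190 against 7891.

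Nts encodes neurotensin, a peptide that acts on blood pressure, gut and feeding. Its probe set read 407 and 92.9 unstressed against 7587 and 8896 immobilized. Both immobilized readings lay far above both unstressed ones, and the unstressed 2 reading lay within the range of the Bacillus controls of that array. The log2 change was 5.26 ± 0.57 (SE, n = 2 per group), with a 95% interval from 3.91 to 6.61 and an adjusted p of 0.00127 in limma. It exceeded the change of 99.95% of tested probe sets. The unstressed arrays themselves differed by 1.96 on the log2 scale, a gap matched or exceeded at only 24 of the 18625 tested probe sets, Nts included. Against unstressed 1, the array that read above the controls, the lower immobilized reading was 18 times as bright on the offset scale. With the unstressed 2 reading raised to the highest Bacillus reading of its array, a setting added after the data were seen, the change was 4.81 (adjusted p = 2.49e-04 in limma). Both unstressed readings lay under the filter level, so Nts was tested through the immobilized arrays, and with no filter its adjusted p was 0.00309. The call was kept with each array left out in turn, at changes from 4.28 to 6.24.

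Gal encodes galanin, a peptide that mostly inhibits transmitter release. Its intensities were 937 and 891 in the unstressed group against 2719 and 2388 in the immobilized group. The arrays of each group lay close together and the groups were well apart. Galanin messenger rose by 1.46 ± 0.19 (SE, n = 2 per group), or 2.76-fold, with an adjusted p of 0.00253 in limma. The gap between the unstressed arrays was 0.07, so the change was 20.2 times that gap, the highest such ratio of the 11 probe sets. A gap between 2 arrays can be small by chance, so the ratio does not rank the changes. It was 13.4 for Sst, most of whose readings lay within the Bacillus range, and 2.69 for Nts. For Gal the change stayed between 1.37 and 1.56 with each array left out in turn.

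Penk encodes proenkephalin, the precursor of the opioid peptides Met- and Leu-enkephalin, an abundant peptide store of chromaffin granules. It read 1190 and 7891 in the unstressed group against 30732 and 20979 in the immobilized group. Every immobilized reading was above every unstressed reading, but the size depends on which arrays are compared. Against unstressed 2 the lower immobilized array was 2.66 times as bright, and against unstressed 1 the brighter one was 25.5 times as bright, both on the offset scale. Penk rose by 3.04 ± 0.76 (SE, n = 2 per group), with a 95% interval from 1.24 to 4.84 and an adjusted p of 0.0241 in limma. The gap of 2.71 between the unstressed arrays was matched or exceeded at only 4 of the 18625 tested probe sets, Penk among them. Without unstressed 1 the change was 1.68 and without unstressed 2 it was 4.40, and both stayed past the threshold. Leaving out immobilized 1 ended the call (limma adjusted p = 0.159), as did leaving out immobilized 2 (0.12) and robust variance estimation (0.0542).

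**Figure D3:**
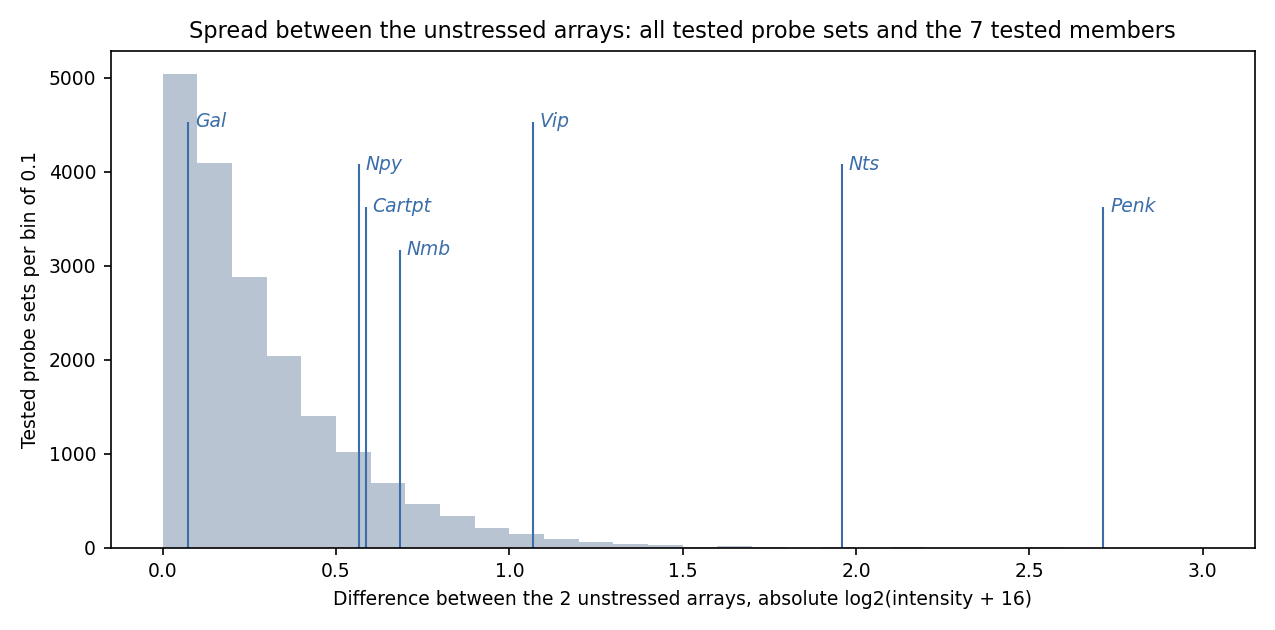
Absolute log2 difference between the 2 unstressed arrays, as a histogram of the 18625 tested probe sets in bins of 0.1, with vertical lines at the 7 tested neuropeptide genes (line heights only separate the names). Gal lies at 0.07, Npy and Cartpt near 0.6, and Penk at 2.71, beyond nearly the whole distribution.

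Npy encodes neuropeptide Y, a vasoconstrictor peptide stored with catecholamines. Its intensities were 30942 and 20911 unstressed against 51379 and 37959 immobilized. The groups did not overlap, with a factor of 1.23 between the nearest readings, while the unstressed arrays differed by 0.56 and the immobilized arrays by 0.44 on the log2 scale. Npy rose by 0.80 ± 0.23 (SE, n = 2 per group), or 1.74-fold, with an adjusted p of 0.0404 in limma. Leaving out unstressed 2, immobilized 1 or immobilized 2 ended the call (limma adjusted p = 0.181, 0.193 and 0.0715), as did testing all probe sets (0.0668) and a variance model with no intensity trend (0.0696). The change was 0.51, 0.58 and 1.01 in the first 3 of these settings and 0.80 in the other two. With either immobilized array left out, the calls that remained among the members were those on Nts and Gal, 2 of the 4. Calls over all tested probe sets dropped in the same settings, from 5799 to 2061 without immobilized 1 and 1678 without immobilized 2.

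Cartpt encodes the precursor of CART peptides, which act on feeding and stress responses in the brain. It read 11672 and 7775 unstressed against 14553 and 14598 immobilized. The immobilized arrays were nearly equal and both lay above both unstressed arrays. The log2 change was 0.61 ± 0.20 (SE, n = 2 per group) with an adjusted p of 0.053 in limma, just over the threshold. The call was made without unstressed 1 (change 0.91, adjusted p = 0.00145 in limma), after median centring (0.75, adjusted p = 0.018) and with the robust model (0.61, adjusted p = 0.0461). Without unstressed 2 the change was 0.32 (adjusted p = 0.158), and with immobilized 1 or immobilized 2 left out the adjusted p was 0.201 and 0.213.

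Vip encodes vasoactive intestinal peptide, which raises cyclic AMP in its target cells and in the adrenal is also known from nerve fibres and ganglion neurons. Its readings were 2341 and 1109 unstressed against 1967 and 3064 immobilized, so the groups overlapped. Its log2 change was 0.60 ± 0.38 (SE, n = 2 per group), with a 95% interval from -0.29 to 1.5 and an adjusted p of 0.266 in limma. The gap between the unstressed arrays, 1.07, was larger than the change. Without unstressed 1 the change was 1.14 and passed (adjusted p = 0.00911 in limma), and without unstressed 2 it was 0.07. Nmb, for neuromedin B, a bombesin-like peptide, read 661 and 406 unstressed against 692 and 532 immobilized, with overlap. Its change of 0.22 ± 0.31 had a 95% interval from -0.51 to 0.95 (adjusted p = 0.619 in limma), and it turned to -0.12 without unstressed 2.

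Tac1 encodes the precursor of the tachykinins substance P and neurokinin A, known as transmitters of sensory nerves. Its probe set read 53.9 and 23.9 in the unstressed group, and 856 and 757 after immobilization. The unstressed readings lay within the Bacillus control range on both arrays and the immobilized readings above it on both. The log2 difference was 3.96, with a gap of 0.81 between the unstressed arrays. With each unstressed reading replaced by the highest Bacillus reading of its array, the immobilized level was at least 4.22-fold higher. Tac1 failed the filter because its mean log2 value was low, so it has no main test. With no filter its adjusted p was 0.00304 in limma, in a fit that called 6.69% of all probe sets as rises.

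Adcyap1 encodes PACAP, the cyclic AMP-raising peptide that the splanchnic nerve releases in the medulla. Its probe set 1394908_at read 141 and 197 unstressed against 377 and 506 immobilized. The other, 1368892_at, read 67.8 and 80.4 against 212 and 308. At both, the immobilized arrays lay above the unstressed arrays, with log2 differences of 1.31 and 1.60. Many of these readings were dim: 1 unstressed reading of 1394908_at, both unstressed readings of 1368892_at and its reading on immobilized 1 lay within the Bacillus range. With no filter the adjusted p in limma was 0.0633 for 1394908_at and 0.045 for 1368892_at. With dim readings raised to the highest Bacillus reading of their array, a setting added after the data were seen, the second difference was 0.52. Sst, for somatostatin, an inhibitory peptide, read 143 and 145 unstressed against 199 and 154 immobilized. Of these, 3 lay within the Bacillus range, so no level was shown above background in the unstressed group and no fold is given.

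**Figure D4:**
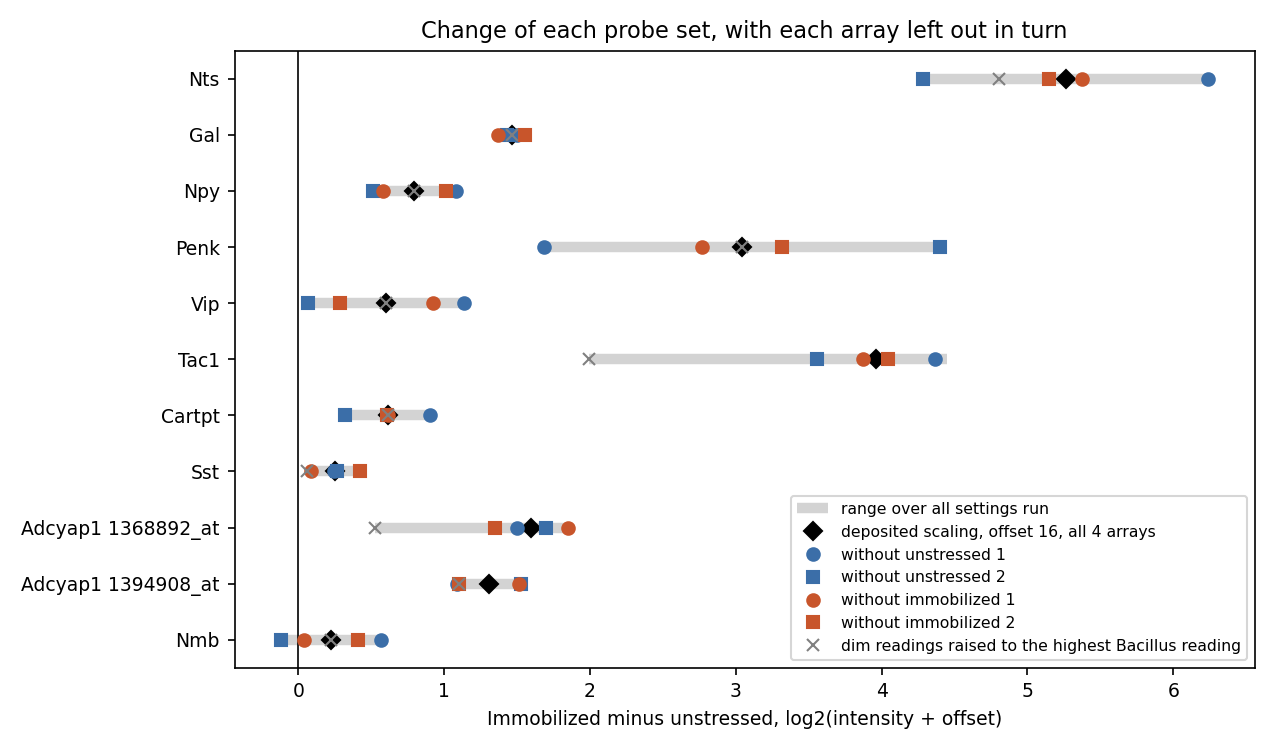
Difference of log2(intensity + offset) between immobilized and unstressed arrays for each neuropeptide probe set, in every processing setting run (grey bar), with all 4 arrays (diamond), with each array left out (coloured points) and with dim readings raised to the highest Bacillus reading (crosses). Gal spans 1.37 to 1.60, Penk 1.68 to 4.40 and Nmb crosses 0.

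The unstressed arrays set much of the uncertainty, and they did not lie in 1 order. Unstressed 1 was the brighter at 7 of the 11 probe sets (Nts, Gal, Npy, Vip, Tac1, Cartpt and Nmb) and unstressed 2 at 4 (Penk, Sst and both of Adcyap1), while over all tested probe sets unstressed 1 was the brighter at 51.7%. Markers of neurons and nerve fibres, which can also make some of these peptides, were also brighter on unstressed 1, at all 7 genes of their list. Their summed intensity over 7 genes was 24459 on unstressed 1 and 13783 on unstressed 2, against 22061 and 18553 on the immobilized arrays, so the groups overlapped. Summed intensity was higher on unstressed 1 also for the chromaffin, macrophage and leukocyte, Schwann and sustentacular (30988 against 21436) and fibroblast (63268 against 47963) lists. For the endothelial (42515 against 53254) and cortex (319247 against 361039) lists it was higher on unstressed 2. Of the 7 nerve genes, 4 were tested, of which 1 rose and 0 fell in limma, also at an unadjusted p under 0.05, with a median change of 0.43. The riser was Slc5a7, the choline transporter of cholinergic nerve endings, at 438 and 128 against 1409 and 1182, a change of 2.35 ± 0.50 (adjusted p = 0.0143, and 0.031 with no filter, its unstressed readings lying under the filter level). Chat, the acetylcholine-making enzyme, lay within the Bacillus range on all 4 arrays, and the neurofilament gene Nefm read 4626 and 2199 against 3621 and 3321. The groups did not overlap at Nefl, another neurofilament gene, with 2972 and 1271 against 3164 and 3357 (change 0.74, adjusted p = 0.168). Nor did they at Nos1, for neuronal nitric oxide synthase, which was too dim to test and read 408 and 303 against 814 and 712, a difference of 1.08. Slc18a3, also of this list and too dim to test, lay lower without overlap, at 379 and 288 against 257 and 283 (difference -0.28). Prph, the brightest of the list, read 15490 and 9471 against 12730 and 9555, with overlap (change -0.14). The part of nerve RNA in the peptide values was not tested.

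Markers of other cells in the gland moved as follows. Of 8 adrenal cortex genes on the array, all tested, 1 rose and 1 fell. The faller was Nr0b1, a repressor of steroid enzyme genes, with a change of -1.48 ± 0.27 (adjusted p = 0.00831 in limma). The riser was Nr5a1, which switches those genes on, with a change of 0.47 (adjusted p = 0.0437). At an unadjusted p under 0.05 in limma 1 rose and 2 fell, with Cyp11b1 now among the fallers at -0.64 (adjusted p = 0.0591). The summed cortex intensity was 319247 and 361039 unstressed against 347390 and 252357 immobilized. Of 5 tested Schwann and sustentacular genes Gfap rose by 1.76 ± 0.22 and S100b fell by 0.59 ± 0.13. Of 5 tested endothelial genes 0 rose and 1, Kdr, fell, while at an unadjusted p under 0.05 in limma 0 rose and 2 fell. In limma 0 of 7 macrophage and leukocyte genes and 0 of 5 fibroblast genes changed, also at an unadjusted p under 0.05. Their part in the neuropeptide values was not tested.

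Genes with the profile nearest to each called member were sought among 13948 other single-gene probe sets, by Euclidean distance over the 4 log2 values after each probe set's own mean was taken off. With 4 arrays this describes shape and no more. Both unstressed readings entered the distance, so the choice itself favours genes whose unstressed arrays lie in the same order as the member's. For Nts the nearest were Vom2r53, Vgf and Fos, at distances of 0.75 to 0.77, Vom2r53 with both unstressed readings within the Bacillus range. Vgf encodes a secreted granule protein of neuroendocrine cells and read 1550 and 636 against 28009 and 25878. Fos, the immediate early transcription factor gene, read 574 and 291 against 12288 and 14407. Like Nts, both were brighter on unstressed 1 than on unstressed 2. For Gal they were Tmem178a, Stat3 and Cpeb4, at 0.09 to 0.10, with Stat3, a cytokine-activated transcription factor, at a change of 1.43. For Npy they were Snap25, Hey2 and Rbm11, at 0.08 to 0.11. Snap25, a membrane fusion protein of secretory vesicles, changed by 0.84 with an adjusted p of 0.0327 in limma. For Penk the nearest were farther off, Btnl5, Gadd45g and Pikfyve at 0.93 to 1.22, and all of these were brighter on unstressed 2, as Penk was. The unstressed 1 readings of Btnl5 and Pikfyve lay within the Bacillus range.

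The receptors of these peptides were mostly dim. Of 27 receptor genes listed 26 were on the array and 8 were bright enough to test. Of those 1 rose, 0 fell and 7 did not pass in limma, with 0 falls at an unadjusted p under 0.05 as well, and the median change was 0.07. At 7 of the 26 all 4 readings lay within the Bacillus range. The riser was Sstr1, a somatostatin receptor, which read 400.4 and 334 unstressed against 1393 and 1602 immobilized. Its log2 change was 1.98 ± 0.23 (SE, n = 2 per group, adjusted p = 0.00166 in limma), while its other two probe sets, both too dim to test, had changes of 0.03 and -0.12. Both unstressed readings of the probe set that rose lay under the filter level, so the 1 rise among 8 tested came in through the immobilized arrays, and with no filter its adjusted p was 0.00453. Adcyap1r1, the PACAP receptor, read 8103 and 6194 against 12201 and 8049, with overlap at the unstressed 1 and immobilized 2 readings (change 0.48 ± 0.22, adjusted p = 0.147). Its other two tested probe sets had changes of 0.52 and -0.02. Tacr2, the neurokinin A receptor, had a change of -0.31 ± 0.19 (adjusted p = 0.264).

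Of 42 further peptide and granin precursor genes 35 were on the array and 10 tested. In limma 3 rose, 0 fell and 7 did not pass, with 0 falls at an unadjusted p under 0.05, and the median was 0.10. The risers were Calca, Vgf and Nmu. Both unstressed readings of Calca and Nmu lay under the filter level, so 2 of the 3 entered the test through the immobilized arrays, and with no filter their adjusted p was 1.58e-04 and 0.0055. Nmu, the precursor of neuromedin U, a peptide of feeding and stress circuits, read 248 and 67.7 unstressed against 2211 and 2546 immobilized, a change of 4.01 ± 0.50 (SE, n = 2 per group, adjusted p = 0.00213 in limma). The unstressed 2 reading of Nmu lay within the Bacillus range, and, as with Nts, unstressed 1 was the brighter. Calca, for calcitonin and its gene-related peptide, had both unstressed readings, 117 and 114, within that range and read 5911 and 6516 immobilized, at least 32.6-fold higher. Adm, for adrenomedullin, and Cck, for cholecystokinin, were the largest changes that did not pass, at -0.49 ± 0.21 and 0.34 ± 0.21. Pdyn, for prodynorphin, the other opioid precursor of the list bright enough to test, read 3293 and 4595 against 3400.4 and 3942 and had a change of -0.09 ± 0.19 (adjusted p = 0.766). Among genes too dim to test, Uts2, the precursor of the vasoactive peptide urotensin 2, was singled out after its values were seen. It read 90.4 and 92.0 unstressed, within the Bacillus range, against 3413 and 1917 immobilized, at least 13.4-fold higher.

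The genes of peptide processing and degradation were nearly all bright enough to test, 20 of the 21 on the array. Most encode enzymes that cut, trim or degrade peptides, but Pcsk1n and Scg5, also on the list, do not. Of 23 listed, 2 were not on the array, Pcsk1 among them. In limma 1 of the 20 rose, 1 fell and 18 did not pass, and the median change was 0.02. At an unadjusted p under 0.05, 2 rose and 3 fell. Pcsk6, a convertase that cuts precursors at paired basic residues, read 283 and 336 unstressed against 1512 and 1016 immobilized, a change of 1.95 ± 0.27 (SE, n = 2 per group, adjusted p = 0.00323 in limma, and 0.00907 with no filter). Its unstressed readings, too, lay under the filter level. Cpd, a carboxypeptidase that trims the cut ends, read 19858 and 17260 against 14019 and 13715, a change of -0.42 ± 0.13 (adjusted p = 0.0476). That call was lost after median centring, without the filter, without the intensity trend and with either immobilized array left out, settings in which 0 of the list fell. Pcsk2, a granule convertase that processes proenkephalin, read 1747 and 1008 against 1847 and 1567, with overlap (change 0.35 ± 0.29, adjusted p = 0.391). Of those that did not pass, Dpp4, a peptidase that clips neuropeptide Y, and Pcsk5 had the largest changes, -0.62 ± 0.25 (adjusted p = 0.102) and 0.53 ± 0.17 (adjusted p = 0.0571). The other tested probe set of Pcsk5, a further convertase, had a change of 0.28. That of Dpp4 had a change of -0.27, with overlap (adjusted p = 0.439 in limma).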

How the data were processed

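For each of 4 arrays of total RNA the deposited values are linear intensities, 1 for every probe set. The probe summary the authors used is not given in the sources at hand. The columns share a trimmed mean (2% off each end) to within 0.00572%, so no further normalization was applied. The 57 control probe sets were left out. Genes were named from GEO's platform annotation, updated by Entrez identifier through a GRCr8 gene table: 20826 probe sets name 1 gene, 436 several and 9780 none. Groups came from the sample descriptions, and 0 sample columns were unused.

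Intensities became log2(intensity + 16). Probe sets under the 40th percentile of mean level were not tested, which left 18625. The test was limma's moderated one (version 3.58.1, R 4.3.3; lmFit, then eBayes with trend), two-sided, Benjamini-Hochberg adjusted over all tested probe sets, threshold 0.05. The fit was tested on simulated data. An exact two-sided permutation test of 2 against 2 arrays cannot go below 0.33 and was not used. A gene in a list stands for its brightest probe set. The members and lists were chosen with earlier results of these data known, and motifs after the sequences were seen. Genes named were all members, up to 6 called and the 2 largest uncalled genes of each list with some others as examples chosen after their values were seen, and 3 nearest profiles per called member. Promoter sequences are from RefSeq. Plots were drawn with matplotlib 3.10.9.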

Additional observations from a re-analysis of the deposited data

How the results depend on the processing

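The alternatives were quantile normalization, median centring, offsets of 1 and 64, a filter at the 60th percentile or none, a variance model with no trend or with robust estimation, each array left out, a threshold of 0.10, and other ways to let probe sets stand for a gene. A floor at the highest Bacillus reading of each array was added after the data were seen. Nts and Gal were called in every setting in which they were tested, 12 and 13 alternatives, and Nts was not tested at the 60th percentile. Npy was called in 8 of 13 and Penk in 10 of 13. The count of 4 members that rose ran from 2 to 6 with an array left out, and from 3 to 5 elsewhere, and the robust model called Cartpt in place of Penk. Members that fell numbered 0 in each of these settings. Nmb ran from -0.12 to 0.56 with an array left out, turning negative without unstressed 2. Under median centring the median change over the tested probe sets was 0.02 in place of -0.12.

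The count of receptors that rose, 1, was 0 at the 60th percentile filter and 1 to 2 with an array left out. Further precursors that rose, 3, numbered 1 at that filter, and 0 to 1 fell with an array left out. Processing and degradation genes that rose, 1, numbered 2 after quantile normalization or median centring and 0 at the 60th percentile filter. The 1 that fell became 0 after median centring, without the filter and without the trend, and 0 to 2 with an array left out. Where 1 array of a group is left, the fit takes its spread from the other group, and the cause of each change was not tested.

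No paired analysis was possible because the labels give no number shared between groups. The dim unstressed readings of Tac1, Adcyap1 and Sst limit what can be said of their size of change.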
